A study of Mus musculus with 3 samples.

Results

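Testicular macrophages were followed in single-cell 3′ RNA libraries of adult mouse testis. A cell barcode was taken as a macrophage when the UMIs (unique molecular identifiers, each counting 1 captured RNA molecule) of C1qa, C1qb, C1qc, Lyz2, Cd74 and Csf1r summed to at least 5 and to at least 20 per 10000 UMIs of that barcode, and exceeded the sum of the Leydig genes Insl3 and Cyp17a1 and the smooth muscle genes Acta2 and Myh11. Of 28485 barcodes kept after a filter on depth and mitochondrial RNA, 145 met this rule: 35 in wildtype replicate 1, 41 in wildtype replicate 2 and 69 in the library of the conditional Tex10 knockout. Values given below in groups of 3 always follow this order. The study compared testes with a conditional knockout of Tex10, which encodes a nuclear protein described in ribosome biogenesis and stem cell gene control, with wildtype testes. Each wildtype library came from 1 mouse, and the knockout library pooled the cells of 2 mice. All animals were adults with the strain label C57BL/6N, and the labels name neither the Cre driver of the knockout nor the deleted exons, so it is not stated whether macrophages carried the deletion. With 1 knockout library no test between genotypes was possible, and all intervals below are at 95% and cover counting error only.

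Macrophages are the main immune cells of the testis. They are known in a form that lies in the interstitium beside Leydig cells and blood vessels and carries scavenger receptors such as the mannose receptor Mrc1, and in a form that lies flat on the seminiferous tubules and carries MHC class II, the molecules that present peptides to helper T cells. Both depend on the growth factor receptor Csf1r and on the transcription factor PU.1, encoded by Spi1. The C1q genes encode the first component of the classical complement pathway, which tags dying cells for uptake.

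MHC class II genes share a promoter element, the Y box, whose core CCAAT bases are bound by NF-Y together with the factors that Ciita works through. The promoters of H2-Aa and H2-Eb1, from the class II genes by which the macrophage barcodes are divided below, and of Pf4, a chemokine gene among the 25 leading macrophage genes, are shown because the values below turn on these genes. Each line holds the 140 bases before the annotated start, 5′ to 3′ on the strand of the gene, from RefSeq on GRCm38.p6. Capitals mark CTGATTGG in H2-Aa and H2-Eb1, and ACTTCCTC, the reverse complement of the PU.1 core GAGGAAGT, in Pf4.
H2-Aa (chr17:34287824-34287963, minus strand): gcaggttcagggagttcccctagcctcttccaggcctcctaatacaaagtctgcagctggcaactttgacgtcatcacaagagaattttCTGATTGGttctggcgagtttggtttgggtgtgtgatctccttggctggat
H2-Eb1 (chr17:34305727-34305866, plus strand): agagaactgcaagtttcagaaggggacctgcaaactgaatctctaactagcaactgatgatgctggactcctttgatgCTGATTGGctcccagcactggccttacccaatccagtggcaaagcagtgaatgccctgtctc
Pf4 (chr5:90772295-90772434, plus strand): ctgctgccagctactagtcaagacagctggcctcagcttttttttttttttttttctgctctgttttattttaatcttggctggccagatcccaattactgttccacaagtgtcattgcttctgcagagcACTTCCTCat
The match began 51 bases before the start in H2-Aa, 62 bases before it in H2-Eb1 and 10 bases before it in Pf4. Over the 250 bases before each start, on both strands, CTGATTGG was present in 4.43% of the 27025 promoters of the table and in 3 of the 6 MHC class II genes found in it, which were H2-Aa, H2-Eb1 and H2-Oa, the last of which had no UMI in any macrophage. GAGGAAGT was present in 2.79% of all promoters and in 2 of the 17 leading macrophage genes found in the table, C1qc and Pf4. The words do not overlap each other in the printed stretches, and a match describes letters and not binding.

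The libraries differed in ways that touch the macrophages. The libraries held 93418341, 96001773 and 147783171 UMIs, and the median macrophage barcode held 2809, 2289 and 3785. Between 27 and 30 barcode sequences recurred between any pair of libraries, none of them a macrophage barcode in both libraries of the pair. Barcodes of more than 3 times the median total numbered 3 in wildtype replicate 1 and 2 in the knockout library, and they held 37.6% and 15.1% of the macrophage UMIs of those libraries. The largest, of 38023 UMIs in wildtype replicate 1, held 495 UMIs of spermatocyte transcripts. In the knockout library a barcode of 28217 UMIs held 397 UMIs of Leydig markers and 145 of Sertoli markers, and another of 23590 UMIs held 6171 UMIs of spermatid transcripts. Knockout results are therefore given with and without these 5 barcodes. A doublet score (Scrublet) placed 26, 28 and 9 macrophages among the highest 8% of scores of their library, so leaving these out removed most wildtype members and few knockout members. Spermatid RNA was present throughout: all 145 barcodes held Prm1, and the 4 protamine and transition protein genes took a median of 175, 149 and 190 per 10000 UMIs of a macrophage barcode. Tex10 itself gave 6, 5 and 7 UMIs in all macrophages of the 3 libraries, 38.1, 49.2 and 20.4 per 1000000 UMIs (CPM), which is too few to check the genotype in these cells.

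Macrophages made up 0.430% of kept barcodes in wildtype replicate 1 (exact Clopper-Pearson interval 0.300% to 0.598%), 0.492% in wildtype replicate 2 (0.353% to 0.667%) and 0.574% in the knockout library (0.447% to 0.726%). The wildtype mean was 0.461% ± 0.0435 (SD, n = 2), and the knockout share lay 0.113 percentage points above it. The 3 intervals overlapped. The order of the wildtype libraries changed with a higher depth limit. Among barcodes of at least 2500 UMIs the shares were 0.540%, 0.289% and 0.843%, with wildtype replicate 1 above wildtype replicate 2. With every barcode thinned to 1000 UMIs they were 0.504%, 0.576% and 0.649%, in the same order as without thinning. The knockout share was the highest in both alternatives, which were chosen after seeing the data. Without the highest 8% of doublet scores the shares were 0.121%, 0.170% and 0.546%. These shares are of barcodes recovered after collagenase digestion and not of cells in the tissue.

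**Figure D1:**
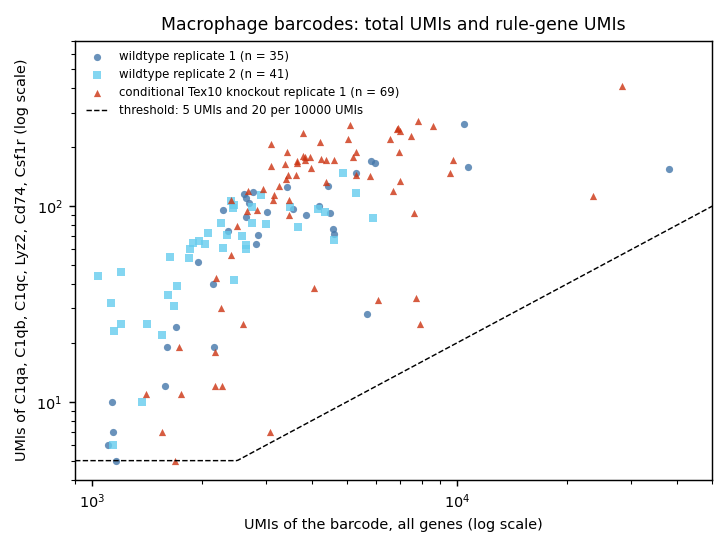
Each point is 1 macrophage barcode, with its total UMIs on the x axis and its UMIs of the 6 rule genes on the y axis, both on log scales, coloured by library; the dashed line is the threshold of 5 UMIs and 20 per 10000 UMIs. Most barcodes lie far above the line, and the 2 largest knockout barcodes and the largest wildtype barcode lie at the right.

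The rule genes chose the barcodes, so their levels are a description. The median macrophage held 90, 65 and 142 rule-gene UMIs, while 88.8%, 88.5% and 86.8% of all other kept barcodes held none. Just inside the threshold, 3, 1 and 3 members held under 10 rule-gene UMIs. Just outside it, 15, 17 and 55 barcodes held 4 such UMIs, and 6, 7 and 33 held at least 5 but failed a further condition, in all but 1 case because they lay under 20 per 10000. The gap on the relative scale was wide in wildtype libraries, where the lowest members held 40.5 and 52.6 per 10000 and the highest of the barcodes under 20 per 10000 with at least 5 such UMIs held 3.36 and 4.01. It was narrow in the knockout library, at 22.8 and 19.3 per 10000.

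The 3 C1q genes lie side by side on GRCm38 chromosome 4, C1qb at chr4:136880129-136886187, C1qc at chr4:136889804-136893065 and C1qa at chr4:136895917-136898803, and encode the 3 chains of 1 protein. C1qa gave 4172, 5240 and 3760 CPM. C1qb gave 2845, 3156 and 3690 CPM, and C1qc 1969, 2418 and 2429 CPM. The levels of each chain differed by less than 1.5 times between libraries, and 96.2% of all C1qa UMIs and 96.3% of all C1qc UMIs in the data lay in the 145 macrophages. C1qb differed from its neighbours, because only 30.3% of its UMIs lay there. In protamine-rich barcodes, those with at least 500 protamine and transition protein UMIs per 10000, C1qb gave 41.4 CPM against 0.107 CPM for C1qa and 0.0778 CPM for C1qc. After thinning to 1000 UMIs, C1qb was found in 90.3% of macrophages and 4.02% of the 8830 protamine-rich barcodes (96.6% and 31.7% before thinning, at median depths of 3091 and 7027.5 UMIs), while C1qa was found in 91.7% and 0.0227% (97.9% and 0.125% before thinning).

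Lyz2, which encodes the lysozyme of myeloid cells, gave 3448, 3638 and 4884 CPM, and Csf1r 540, 580 and 521 CPM. Cd74, the chaperone of MHC class II, gave 6039, 11404 and 11603 CPM. Cd74 was the rule gene that varied most between the wildtype libraries. Single barcodes ran from 0 to 163 UMIs of it, with a median of 11, 32 and 63. The last 500 bases of Lyz2 transcripts share 36.2% of their 31-base words with Lyz1, so part of its count could belong to that gene.

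Genes that the rule did not use carried the macrophage label in most members. Of 5 markers shared by myeloid cells, Fcer1g (the common signalling chain of Fc receptors) was found in 136 of the 145 barcodes, Tyrobp (the adaptor DAP12) in 133, Ctss (cathepsin S) in 121, Laptm5 in 100 and Adgre1 (the antigen F4/80) in 52. At least 1 of the 5 was found in 141. All 21 barcodes with 13 to 40 rule-gene UMIs and all 110 with at least 41 held 1 of these markers, but only 10 of the 14 barcodes with 5 to 12 such UMIs did, and none of those 14 held Adgre1. Thinned to 1000 UMIs, Tyrobp was found in 72.4% of macrophages and Fcer1g in 77.2%, against 0 of 8830 protamine-rich barcodes for Tyrobp, which allows a share of up to 0.034%, and 0.215% for Fcer1g. Unthinned shares were 91.7% and 93.8% in macrophages and 0.0227% and 0.747% in protamine-rich barcodes.

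Most markers of other immune cells were at or near 0, with the exception of Ighm, the heavy chain of IgM from the B cell list, at 108, 108 and 198 CPM. In the T and NK cell list, 7 of 10 genes had no UMI in any macrophage, Cd3e, Trac and Nkg7 among them, and 9 of 10 neutrophil and mast cell genes had none, S100a8 and S100a9 among them. A gene with no UMI over the 145 barcodes had at most 4.98 CPM at this depth. The monocyte and dendritic cell list was as empty: 7 of its 11 genes had no UMI, including Ly6c2, Itgax, Flt3, Xcr1 and Clec9a, and Ccr2, the receptor of blood monocytes, gave 1, 2 and 10 UMIs. Of 7 peritubular myoid genes only 1 reached 20 UMIs and was not higher than in other barcodes, and Tagln and Cnn1 had no UMI. Of 8 endothelial markers, Cdh5, Kdr, Tek, Emcn and Cldn5 had no UMI. The other endothelial markers, Egfl7, Vwf and Pecam1, brought the list to 17 UMIs, or 44.5, 0 and 29.1 CPM, against 8.10, 8.01 and 15.4 CPM in other barcodes.

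Against all other kept barcodes of the same library, 722 of 4688 genes with at least 20 macrophage UMIs (15.4%) were at least 4 times higher in macrophages in each of the 3 libraries, and 1 gene (0.0213%), Gm20621, was at least 4 times lower in each; it is named after its values were seen. Since members were chosen by 6 of these genes, nothing here was tested. The minimum of 20 macrophage UMIs also leaves out genes scarce or absent in macrophages, so the counts of higher and lower genes cannot be compared. By the smallest of the 3 ratios the leading genes were Cd74, Lyz2, Tyrobp, Ctss, C1qa, C1qc, Pf4, Cxcl2, Ccl3, H2-Aa and H2-Eb1, followed among others by Wfdc17, Cybb, Ccl4, Ccl2, Trem2, Csf1r, Laptm5, Cbr2, Ms4a7 and Il1b. Of the pan-macrophage list, 15 of the 16 genes with 20 UMIs were called higher. The exception was Aif1, the gene of the marker protein IBA1. Aif1 gave 813, 944 and 958 CPM in macrophages, but 1150 CPM in protamine-rich barcodes, and 0.339% of its UMIs lay in macrophages. It was found in 57.9% of thinned macrophages and 50.5% of thinned protamine-rich barcodes (91.0% and 79.1% before thinning).

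**Figure D2:**
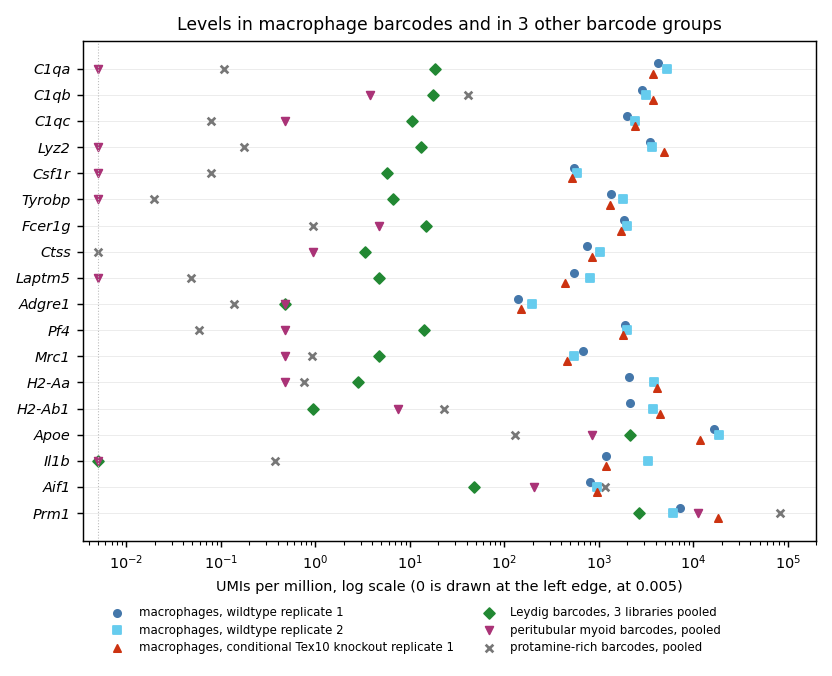
Levels of 18 genes in CPM on a log axis, in the macrophage barcodes of each library (circles, squares and triangles) and in pooled Leydig, peritubular myoid and protamine-rich barcodes. Macrophage points of the rule genes and of Tyrobp, Ctss and Pf4 lie far to the right of all other groups, Aif1 overlaps protamine-rich barcodes, and Prm1 is highest in protamine-rich barcodes but present in all groups.

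The lineage regulators were well covered, with 11 of 13 genes reaching 20 UMIs and all 11 called higher (background 15.4%). Spi1, the PU.1 gene, gave 254, 177 and 300 CPM, against 1.06 CPM in other barcodes. Maf, another transcription factor of macrophages, gave 584, 383 and 379 CPM. Irf8, which directs mononuclear phagocyte development, gave 76.2, 118 and 134 CPM but was higher still in Leydig barcodes, at 194 CPM. Klf4 gave 344 CPM over all macrophages and 364 CPM in peritubular myoid barcodes, so it did not separate those types.

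All 5 Fc receptor genes with 20 UMIs were called higher (background 15.4%). Fcer1g gave 1835, 1996 and 1692 CPM. Fcgr3, a low-affinity receptor for antibody, gave 324, 275 and 218 CPM, and Fcgr1, the high-affinity receptor, 102, 68.8 and 102 CPM. Within complement the C1q chains were abundant and the later components scarce. C3 gave 1, 0 and 2 UMIs, C4b 0, 2 and 1 and Cfb 0, 0 and 1, while the anaphylatoxin receptor C3ar1 (20, 12 and 31 UMIs) was called higher.

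Genes of uptake and digestion were high in most cases. Of 9 uptake receptors with 20 UMIs all were called higher, and so were 18 of 21 lysosomal genes (background 15.4%). Trem2, a lipid receptor that signals through Tyrobp, gave 349, 383 and 355 CPM. Stab1, a scavenger receptor, gave 311, 452 and 245 CPM. Mertk, the efferocytosis kinase, gave only 7, 1 and 3 UMIs, Axl 10, 16 and 23, and Tyro3 none. The 3 lysosomal genes not called were Lamp1, at 435 CPM against 253 CPM in other barcodes, Ctsl, which was higher in myoid barcodes (516 CPM) than in macrophages (252 CPM), and Hexa, at 305 CPM against 68.6 CPM. Ctsb, a cathepsin, gave 1175, 865 and 751 CPM, against 725 CPM in Leydig barcodes and 115 CPM in myoid barcodes.

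Lipid and iron handling were led by Apoe, the apolipoprotein, with 16549, 18738 and 11758 CPM in macrophages, 2116 CPM in Leydig and 837 CPM in myoid barcodes. Apoe was unevenly spread, since the median barcode held 6, 2 and 5 UMIs and the highest 488, 359 and 391. The ferritin genes Fth1 (6674, 6086 and 5449 CPM) and Ftl1 (5341, 5161 and 4610 CPM) were called higher than in the rest, but Fth1 was as high in Leydig barcodes, at 6853 CPM. Ftl1 shares 83.0% of the words of its last 500 bases with pseudogenes, so its count is uncertain. Hmox1, the haem-degrading enzyme, gave 18, 13 and 50 UMIs.

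Chemokines were the functional list with the largest separation, a median log2 ratio of 11.93 over its 11 genes with 20 UMIs against -0.48 over all genes tested. Of these 11 genes, 10 were called higher (background 15.4%). Ccl4 gave 1480, 2055 and 1086 CPM, Cxcl2 800, 1642 and 649 CPM and Ccl3 565, 983 and 396 CPM, each at most 1.89 CPM in Leydig and myoid barcodes. Pf4 was the steadiest, with 1892, 1986 and 1812 CPM. Among cytokines, Il1b gave 1194, 3293 and 1200 CPM, so its wildtype libraries differed more from each other than the knockout library from wildtype replicate 1. Tnf gave 33, 15 and 21 UMIs and Igf1, a growth factor, 46, 19 and 61, while Il6, Il10, Vegfa and Lif had no UMI.

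Niche factors that macrophages have been described to supply to spermatogonia were scarce here. Csf1 gave 0, 0 and 1 UMIs, Aldh1a2 3, 0 and 4, Rdh10 0, 1 and 5, and Gdnf, Fgf2 and Aldh1a3 none. Aldh1a1 reached 2, 2 and 82 UMIs, but without the 5 large barcodes 1, 2 and 10, and it was far higher in Leydig barcodes, at 5444 CPM. None of the 6 proliferation genes with 20 UMIs was called higher (background 15.4%). Mki67 gave 5, 0 and 0 UMIs, all 5 in 1 barcode, and Top2a 29, 7 and 17 UMIs. Without the 5 large barcodes Mki67 gave none and Top2a 2, 7 and 17.

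Immediate early genes were high in all 3 libraries. Fos gave 2286, 3588 and 2659 CPM, Jun 1353, 1563 and 1480 CPM and Atf3 794, 1917 and 1308 CPM. All 14 genes of this list with 20 UMIs were called higher (background 15.4%). Fos and Jun were as high in myoid barcodes, at 3046 and 1551 CPM, whereas Atf3 gave 124 CPM there. These genes are known to respond to enzymatic dissociation, whose part in these levels was not tested. Of 7 interferon response genes with 20 UMIs, 6 were called higher (background 15.4%), Ly6e at 572, 560 and 682 CPM and Ifi27l2a at 540, 364 and 382 CPM among them. Ifit1 gave 1, 0 and 0 UMIs.

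Macrophage barcodes differed widely from each other in MHC class II. The 8 class II genes other than Cd74, summed, gave 6268, 11994 and 13927 CPM, and from 0 to 511 UMIs per 10000 in single barcodes. A limit of 50 per 10000, set after the data had been seen, divided them into 90 MHC class II-rich and 55 MHC class II-poor barcodes. The rich share was 54.3% in wildtype replicate 1 (exact interval 36.6% to 71.2%), 65.9% in wildtype replicate 2 (49.4% to 79.9%) and 63.8% in the knockout library (51.3% to 75.0%), so the 3 intervals overlapped. The sides are ranges of a score and not cell types, and 20 barcodes lay between 25 and 100 per 10000.

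The interstitial list, headed by Mrc1, Pf4, F13a1, Cbr2, Folr2 and Stab1, took the other side. It gave a median of 6.02 per 10000 UMIs in MHC class II-rich barcodes and 73.5 in MHC class II-poor barcodes, and this order held in each library, at 4.38 and 59.8, 4.08 and 91.6, and 7.56 and 52.8. At least 50 per 10000 of the interstitial list was reached by 6 of the 90 rich and 35 of the 55 poor barcodes. Spearman's rho between the scores was -0.64 over 35 barcodes, -0.50 over 41 and -0.37 over 69. These correlations are descriptions across barcodes that share a library, and shares of 1 total lower each other. Median depth was 2921.5 UMIs on the rich side and 3679 on the poor side. Of the 5 large barcodes, 4 lay on the poor side. The large barcode on the rich side was the one of 28217 UMIs with Leydig transcripts, at 54.9 per 10000, close to the limit, and Leydig markers gave 1233 CPM on the rich and 79.1 CPM on the poor side.

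**Figure D3:**
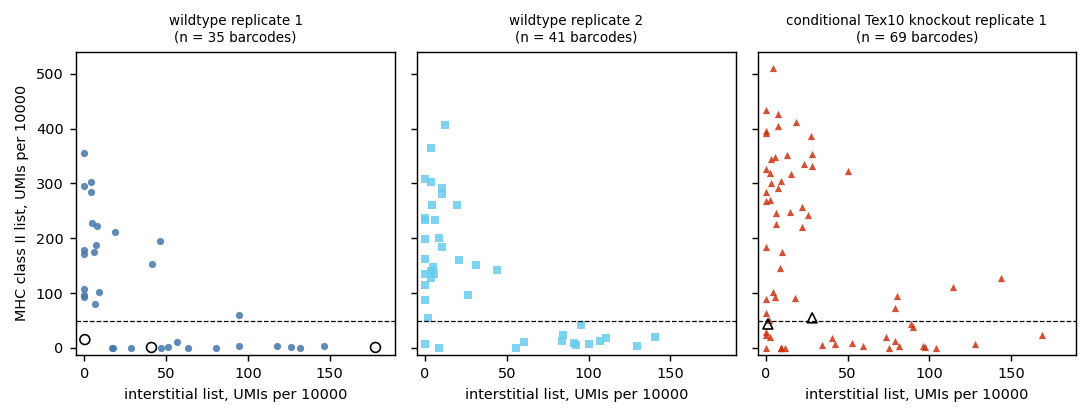
Each point is 1 macrophage barcode of the named library, with UMIs of the interstitial list per 10000 on the x axis and UMIs of the 8 MHC class II genes without Cd74 per 10000 on the y axis; open black symbols are the large barcodes and the dashed line is the limit of 50 per 10000. Points follow both axes and few lie high on both, with 5 knockout barcodes above the line and at 50 or more on the x axis.

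Of the genes tested, 70 (1.49%) were at least 2 times higher on the MHC class II-rich side in each library and 78 (1.66%) at least 2 times lower. These counts moved with the libraries: 141 were higher without wildtype replicate 2, and 177 lower without the knockout library. H2-Aa, H2-Ab1, H2-Eb1 and Cd74 were among the higher, as the division by class II genes or their partner fixes. H2-Aa gave 6150 CPM on the rich side and 485 CPM on the poor side over all libraries. H2-Eb1 gave 6791 and 284 CPM, and H2-Ab1 6628 and 367 CPM. H2-Aa and H2-Eb1 are the genes whose promoters are printed above.

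The rich side also held inflammatory chemokines and cytokines. Of 11 chemokines with 20 UMIs, 6 were called rich and 4 poor (background 1.49% and 1.66%). Cxcl2, which draws neutrophils, gave 1510 CPM on the rich side and 93.5 CPM on the poor side, with log2 ratios of 3.38, 6.80 and 4.47 in the 3 libraries. Il1b gave 2657 and 262 CPM (log2 ratios 3.02, 4.29 and 3.24), and Ccl4 2315 and 230 CPM (4.89, 2.06 and 3.29). Ccl3, Cxcl16, Ccl12 and Cxcl10 followed, with Ccl3 and Cxcl10 not called without the large barcodes. Cd14, the endotoxin co-receptor, gave 774 and 104 CPM, and Cd83, an activation marker, 496 and 68.3 CPM. The rich-side calls among immediate early genes were Atf3 (2044 and 381 CPM), Nfkbia (613 and 158 CPM) and Zfp36 (1492 and 593 CPM), while Fos (3665 and 1614 CPM) and Jun (1640 and 1251 CPM) were not called. Mgl2, a C-type lectin named here after its values were seen, gave 385 and 17.98 CPM.

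The poor side held scavenging, lipid and lysosomal genes. F13a1, the coagulation factor XIII subunit of tissue macrophages, gave 845 CPM on the poor side and 160 CPM on the rich side, Cbr2 611 and 102 CPM, Folr2 349 and 55.5 CPM and Stab1 511 and 114 CPM. Pf4 was called poor as well but was present on both sides, at 2754 and 1097 CPM. Mrc1, at 798 and 308 CPM, did not reach 2-fold in each library. Of the 8 interstitial genes with 20 UMIs, 5 were called poor (background 1.66%). Of 8 lipid genes with 20 UMIs 5 were called poor (background 1.66%). Apoe gave 23959 CPM against 5811 CPM, the sterol exporters Abca1 309 against 64.7 CPM and Abcg1 64.7 against 9.25 CPM, and Lpl and Lipa were the others. Of 21 lysosomal genes 6 were called poor (background 1.66%), with Ctsd at 493 against 108 CPM, Grn at 852 against 231 CPM and Ctsb at 1370 against 462 CPM. Trem2 gave 564 and 182 CPM, the iron exporter Slc40a1 205 and 18.5 CPM, and Igf1 367 and 74.0 CPM.

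A further group of chemokines was on the poor side. Ccl24, an eosinophil chemokine, gave 280 CPM on the poor side and 49.3 CPM on the rich side, Ccl7 360 and 61.7 CPM and Ccl8 1284 and 515 CPM. Ccl2, which lies beside Ccl7 on chromosome 11, was on neither side, at 381 and 447 CPM. Cd209f and Cd209g, C-type lectins of the SIGN family, are named after their values were seen. Cd209f gave 604 and 30.8 CPM and Cd209g 216 and 3.08 CPM. Of the words in the last 500 bases of Cd209f, 41.5% also occur in other genes, Cd209g among them, so their counts could mix.

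General macrophage genes lay on both sides. The C1q genes and Csf1r helped to choose the barcodes, so their presence on both sides is partly set by the rule. Tyrobp and Fcer1g were not used by it. C1qa gave 4220 CPM on the rich and 3998 CPM on the poor side, C1qb 3406 and 3347, C1qc 2303 and 2312, Tyrobp 1535 and 1240, and Fcer1g 1846 and 1704. Csf1r, at 382 and 715 CPM, was not called with all members and was called poor without the 5 large barcodes. Spermatid transcripts gave 24553 CPM on the rich and 52847 CPM on the poor side, and the barcode of 23590 UMIs that held 6171 of them is on the poor side. Their part in the other differences was not tested. Without the 5 large barcodes 131 genes were lower on the rich side in place of 78, Ftl1 and Ly6e among them, while Abcg1, Atf3, Ccl3 and Cxcl10 were no longer called. Without the highest 8% of doublet scores, which left few wildtype members, 152 genes were higher and 1 lower.

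**Figure D4:**
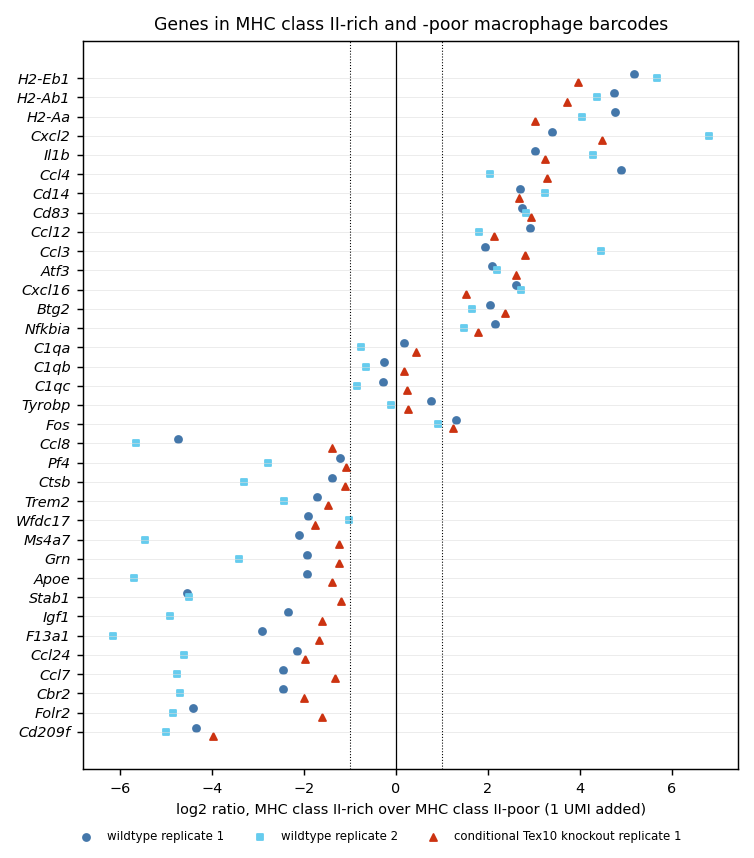
Log2 ratio of the CPM in MHC class II-rich over MHC class II-poor macrophage barcodes for 35 genes, 1 UMI added to each sum, with circles for the first wildtype replicate, squares for the second and triangles for the knockout; dotted lines mark 2-fold. Class II genes, Cxcl2, Il1b and Ccl4 lie to the right in all libraries and Cd209f, Folr2, Cbr2 and Apoe to the left. The C1q genes, which helped to choose the barcodes, lie near 0.

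Knockout macrophages were set against each wildtype library in turn. A gene counted when its CPM, with 1 UMI added, was at least 2 times higher or lower than in both, and when its Poisson interval overlapped neither of theirs. Of 4688 genes, 59 (1.26%) were higher and 14 (0.299%) lower. The excess of higher genes depended on the setting, with 119 higher and 184 lower when only wildtype replicate 1 was compared, and 110 higher and 165 lower with no condition on the intervals. Without the germ-cell lists and all genes of higher pooled CPM in other barcodes than in macrophages, 37 were higher and 12 lower. Most of the higher genes rested on 1 barcode. In 36 of the 59, at least 50% of the knockout UMIs lay in 1 barcode, in 34 of them the barcode of 28217 UMIs with Leydig and Sertoli transcripts. All of the 10 genes with the largest ratios were of this kind: Lcn2, Cyp17a1, Akr1cl, Cstdc2, Fabp3, Star, Gsta3, Ptgds, Klk1b21 and Cyp11a1. Cyp17a1, a steroidogenic enzyme, gave 1, 0 and 221 UMIs, of which 215 were in that barcode, and Leydig barcodes held it at 8520 CPM. Lcn2, a secreted iron-scavenging protein, gave 0, 0 and 356 UMIs, of which 335 were in that barcode and 21 in other members. Outside macrophages it gave 49.0, 49.3 and 107 CPM. Spermatid genes made up others of the higher calls, among them Prm1, at 7227, 6086 and 18095 CPM, Tnp1 and Tnp2. Summed Leydig markers gave 31.8, 9.83 and 1212 CPM with all members and 50.9, 9.83 and 65.2 CPM without the 5 large barcodes, and spermatid transcripts 27472, 18443 and 47944 CPM against 26559, 18443 and 35051 CPM. Without those barcodes 12 genes were higher and 11 lower, of which 8 and 10 were the same genes as before. Without the highest 8% of doublet scores 38 were higher and 2 lower.

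Of the 8 higher genes called both ways, Ccl8 and Ccl12 encode monocyte chemokines. The others were Lcn2, Iigp1, Gm42418, Sh3bgrl3, Hmox2 and Ppp2r2b. Sh3bgrl3, Hmox2 and Ppp2r2b are named after their values were seen. Sh3bgrl3 gave 36, 26 and 274 UMIs, in the knockout library over 59 barcodes with 4.38% in the highest. It was still called without the highest 8% of doublet scores, at a smaller log2 ratio of 1.72. Ccl8 gave 57, 32 and 435 UMIs, or 362, 315 and 1267 CPM (wildtype mean 338 ± 33.5, SD, n = 2). Its UMIs were spread over 25 knockout barcodes, with 15.9% in the highest, against 8 and 5 wildtype barcodes, where 73.7% and 50% lay in 1 barcode. The knockout value thus lay above both wildtype values, by log2 ratios of 1.79 and 1.97, and by 1.28 and 2.09 without the large barcodes. Without the highest 8% of doublet scores the smaller of the 2 ratios was 0.93 and Ccl8 was not called. Thinned to 1000 UMIs, Ccl8 was found in 8.57%, 9.76% and 27.5% of macrophages, and pooled in 17.9% of macrophages (26.2% before thinning) and 0.0227% of protamine-rich barcodes (0.068% before thinning).

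Ccl12 gave 7, 23 and 210 UMIs, or 44.5, 226 and 612 CPM, in 2, 6 and 25 barcodes. The wildtype libraries stood far apart, with a mean of 135 ± 128 CPM (SD, n = 2), and the knockout value lay above both by log2 ratios of 3.60 and 1.38. Of the 25 knockout barcodes with each chemokine 7 held both, and the genes lay on opposite sides of the MHC class II division: Ccl12 gave 650 CPM on the rich side and 104 CPM on the poor side. Both genes lie in a cluster on GRCm38 chromosome 11, with Ccl2 at chr11:82035571-82037453, Ccl7 at chr11:82045712-82047525, Ccl12 at chr11:82101845-82103400 and Ccl8 at chr11:82115185-82116799. Ccl2 and Ccl7 had the opposite sign. Ccl2 gave 94, 67 and 90 UMIs, or 597, 659 and 262 CPM, with log2 ratios of -1.19 and -1.33, and was called lower, though not without the highest 8% of doublet scores, where the ratio nearer to 0 was -0.29. Ccl7, at 394, 167 and 119 CPM, was not called.

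The 2 sides of the MHC class II division differed in Ccl8 between the libraries. Wildtype rich barcodes held no Ccl8 UMI, 0 in 19 and 0 in 27 barcodes, which allows up to 60.3 and 49.02 CPM. Knockout rich barcodes held 167 UMIs, or 782 CPM, all in 5 of 44 barcodes with up to 66 in 1 of them, and 134 UMIs in 4 barcodes without the large one. On the poor side Ccl8 was found in 8 of 16, 5 of 14 and 20 of 25 barcodes, at 529, 790 and 2063 CPM. Ccl12 was found in 1 of 19, 4 of 27 and 19 of 44 rich barcodes, at 121, 327 and 867 CPM, so its knockout UMIs were spread over more barcodes than those of Ccl8 on that side.

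Of the 11 chemokines with 20 UMIs, 2 were called higher and 1 lower, against 1.26% and 0.299% of all genes. Cxcl2, Ccl3 and Ccl4 were lower than in both wildtype libraries without passing the rule, with log2 ratios of -0.31 and -1.34, -0.52 and -1.32, and -0.45 and -0.92. Without the large barcodes these ratios were -0.57 and -1.10, -0.91 and -1.09, and -0.92 and -0.71, and the 3 genes were again not called. Iigp1, an interferon-induced GTPase named after its values were seen, gave 3, 1 and 45 UMIs in 3, 1 and 14 barcodes (19.1, 9.83 and 131 CPM). Without the highest 8% of doublet scores it was not called, although the smaller log2 ratio was still 1.67. Of the interferon response list 0 of the 7 genes with 20 UMIs were called. As 1.26% of all genes were called higher, 0 calls in so short a list says little. The median log2 ratio of the list was 0.03 against -0.15 over all genes tested.

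The lower genes included early response transcription factors. Egr3 gave 19, 14 and 3 UMIs (121, 138 and 8.74 CPM), Egr2 18, 11 and 9, Fosl2 18, 15 and 13 and Nr4a1 37, 54 and 27 (235, 531 and 78.6 CPM). In these genes the knockout library was the lowest of the 3 although it held the most macrophage UMIs. Egr3 and Nr4a1 were lower with and without the large barcodes, whereas Egr2 and Fosl2 were no longer called without them. The log2 ratios of Egr2 went from -2.05 and -2.02 to -2.25 and -1.78, and those of Fosl2 from -1.57 and -1.95 to -1.46 and -1.71, so both stayed past 2-fold. Neither Egr3 nor Nr4a1 was called without the highest 8% of doublet scores, where the ratios nearer to 0 were -1.88 and -1.16. Outside macrophages Egr3 gave 9.29, 9.01 and 8.19 CPM and Nr4a1 10.4, 11.7 and 9.32 CPM. Of the immediate early list, which holds none of these 4 genes, 0 of the 14 genes with 20 UMIs were called. As 0.299% of all genes were called lower, 0 calls in so short a list says little. The median log2 ratio of the list was -0.24 against -0.15 over all genes tested. Summed, the list gave 12110, 18070 and 13386 CPM, and 16587, 18070 and 15013 CPM without the large barcodes.

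The remaining lower genes were of several kinds. Abca1, the sterol exporter, gave 273, 275 and 105 CPM (log2 ratios -1.37 and -1.40), and 407, 275 and 106 CPM without the large barcodes. Abcg1 gave 11, 6 and 4 UMIs and was not called, as was Apoe at log2 ratios of -0.49 and -0.67. S100a6, a calcium-binding protein, gave 222, 216 and 78.6 CPM, and Cdc20, Gdpd3 and Gm6377 gave 3 to 17 UMIs per library. Rpl29, a ribosomal protein gene, gave 1295, 1249 and 134 CPM, but all other barcodes showed the same, at 841, 850 and 88.2 CPM, so the difference was not particular to macrophages. Gm8797 showed the same, at 95.3, 128 and 8.74 CPM in macrophages and 153, 192 and 20.8 CPM in other barcodes. Rpl29 shares 57.7% and Gm8797 93.0% of the words of their last 500 bases with other genes. Among genes called higher with and without the large barcodes, Gm42418, named after its values were seen, was higher in the knockout library outside macrophages too, at 3069, 1743 and 8002 CPM.

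None of the 6 MHC class II genes with 20 UMIs was called between genotypes, where 1.26% of all genes were called higher. So short a list could easily hold 0 calls, which says little. The median log2 ratio of the list, with Cd74, was 0.53 against -0.15 over all genes tested. The summed level of the 8 genes without Cd74 was 13927 CPM in the knockout library (Poisson interval 13535 to 14328). In the wildtype libraries it was 6268 and 11994 CPM (wildtype mean 9131 ± 4049, SD, n = 2). With all members, the wildtype libraries differed by more than wildtype replicate 2 differed from the knockout library. Without the large barcodes the values were 9433, 11994 and 15517 CPM. There, wildtype replicate 2 differed more from the knockout library than from wildtype replicate 1. The interstitial list gave 4591, 4178 and 3629 CPM (wildtype mean 4385 ± 292), and 5007, 4178 and 3989 CPM without the large barcodes. None of its 8 genes with 20 UMIs was called, where 0.299% of all genes were called lower, which again says little. Its median log2 ratio was -0.43 against -0.15 over all genes tested.

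**Figure D5:**
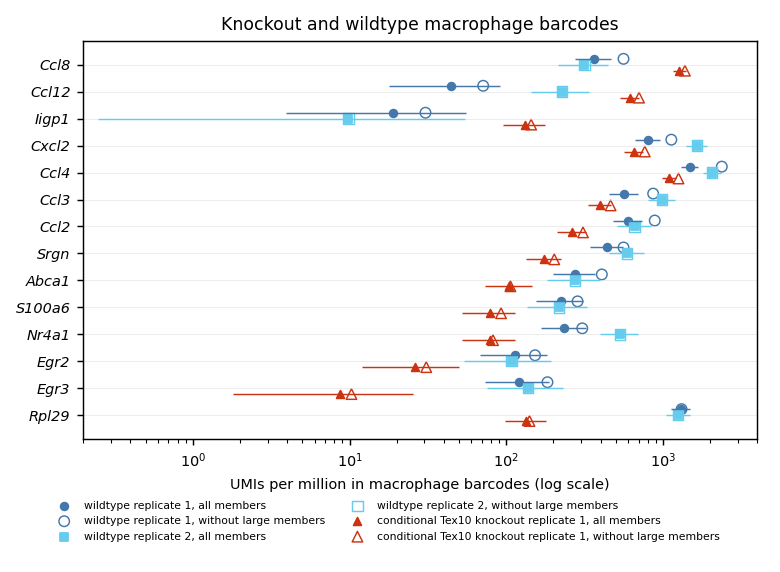
CPM of 14 genes in the macrophage barcodes of the wildtype replicates 1 (circles) and 2 (squares) and the knockout (triangles) on a log axis; filled symbols with exact Poisson intervals are all members, open symbols leave out the 5 large barcodes. Ccl8, Ccl12 and Iigp1 lie to the right in the knockout library, and Ccl2, Abca1, S100a6, Nr4a1 and Egr3 to the left. For Cxcl2, Ccl3 and Ccl4 the knockout symbols lie left of both wildtype replicates. The filled knockout symbols of these genes lie nearer to replicate 1 than to replicate 2.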

How the data were processed

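The deposited values were raw counts of UMIs per gene and barcode, one matrix per library; Cell Ranger 4.0.0, Seurat 4.0.5 and the build mm10 are named in the submitters' processing notes, which give no role for each. Barcodes were dropped when they had under 1000 UMIs, under 500 detected genes or over 10% of UMIs from mitochondrial genes. UMIs were summed per library over macrophage barcodes and divided by their total (CPM). A gene needed 20 macrophage UMIs, and 1 UMI was added before ratios. With 1 knockout library no p-value was computed. Doublets were not removed. The automatic threshold of Scrublet (scanpy 1.11.5) marked 0, 1 and 0 barcodes and had not worked, so the highest 8% of scores were left out as an alternative. Genes were named from 32 functional lists, as the 25 leading genes, as up to 10 genes in each direction between genotypes, or as Tex10; others are said to be chosen after their values were seen. Members and lists were chosen with earlier results of these data known. The limit of 50 per 10000 for MHC class II was set after seeing the data. Shared 3′ ends were measured as 31-base words of the last 500 bases of transcripts (GENCODE M21, GRCm38) that also occur in another gene. Gene positions are from the same annotation, which matched 32158 of 32285 genes. Steps were tested on simulated data. Python 3.11.15, numpy 2.4.6, scipy 1.17.1, pandas 2.3.3 and matplotlib 3.10.9 were used.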

Additional observations from a re-analysis of the deposited data

How the results depend on the processing

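The number of macrophages was 145 and was 82 without the highest 8% of doublet scores. Their share of kept barcodes, 0.509% over the 3 libraries, was 0.598% at 2000 UMIs or more and 0.586% at 2500 UMIs or more. It was 0.586% after thinning, without the minimum of 5 rule-gene UMIs, and 0.314% without the highest doublet scores. The knockout share minus the wildtype mean, 0.113 points, was 0.240 at 2000 UMIs or more, 0.429 at 2500 or more, 0.171 at no more than 5% mitochondrial UMIs and 0.400 without the highest doublet scores. Genes higher in macrophages numbered 722, and 312 without the highest doublet scores or 1277 with no minimum of UMIs. The 73 genes past the size rule between genotypes became 47 with membership that ignored the C1q genes, 40 without the highest doublet scores, 23 without the 5 large barcodes, 46 at 3-fold and 275 with no condition on the intervals. The interstitial level, 3973 CPM, was 4712 with membership that ignored Cd74 and 3476 as a mean over barcodes. The MHC class II-rich share, 62.1%, was 53.7% without the highest doublet scores, 70.9% in members with at least 41 rule-gene UMIs and 51.7% at a limit of 100 per 10000; the 2 last were chosen after seeing the data, as were the values at 2500 UMIs and after thinning. In each case the cause was not tested.

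Leaving out 1 library at a time gave 76 to 110 macrophages, a share of 0.461% to 0.541%, a difference of 0.0825 to 0.144 points, 437 to 665 genes higher in macrophages, an MHC class II level of 8515 to 13485 CPM, an interstitial level of 3754 to 4429 CPM, 180 to 303 genes past the size rule (the fewest without wildtype replicate 1, the most without wildtype replicate 2) and an MHC class II-rich share of 60.5% to 64.5%. The excess of genes higher in the knockout, 59 against 14, turned to 119 against 184 without wildtype replicate 2 and to 110 against 165 with no condition on the intervals. Genes higher and lower on the MHC class II-rich side, 70 and 78, were 77 and 68 at no more than 5% mitochondrial UMIs, 82 and 58 with a rule minimum of 3 UMIs and 10 per 10000, and 152 and 1 without the highest doublet scores. Leaving out 1 library gave 99 to 141 higher and 94 to 177 lower. Depth limits the scarce genes most: a gene at 0 in a library may reach 19.1, 29.5 or 8.74 CPM. No paired analysis was possible because the knockout has 1 library and the groups share fewer than 2 replicate numbers.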

Other observations

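Ighm, the heavy chain of IgM, was the only gene of the B cell list with 20 UMIs, and it was called higher in macrophages (background 15.4%). It gave 17, 11 and 68 UMIs, or 108, 108 and 198 CPM, against 0.0492 CPM in other barcodes. Its UMIs were spread thinly, over 12 of 35, 11 of 41 and 37 of 69 macrophages, with at most 6 in 1 barcode. After thinning to 1000 UMIs it was found in 8.28% of macrophages and 0 of 8830 protamine-rich barcodes (41.4% and 0.0227% before thinning, at median depths of 3091 and 7027.5 UMIs). The light chain gene Igkc and the B cell genes Cd79a and Ms4a1 had no UMI in any macrophage, and Cd79b gave 6, 1 and 8. Ighm lay on both sides of the MHC class II division, at 151 CPM on the rich and 169 CPM on the poor side.

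Some class II genes were also found outside macrophages. H2-Ab1 had 32.8% of its UMIs in macrophages and gave 23.1 CPM in protamine-rich barcodes, and H2-DMa had 2.01% of its UMIs in macrophages and gave 47.0 CPM there. H2-Aa gave 0.749 and H2-Eb1 0.730 CPM in protamine-rich barcodes.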
